A study of Homo sapiens with 15 samples.

Results

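This report covers 48 genes that stood lower in A673 cells with endogenous EWS/FLI (endo-EF) than in EWS/FLI-depleted cells, and whose mean level did not move when wildtype EWS/FLI was put back. They were chosen by measured values among 15467 genes with a mean count of at least 20 per library. The count table lists 57820 gene identifiers. The rule used the mean log2 CPM (counts scaled to library size by TMM, with a prior count of 2) of 3 libraries per condition. It required iLuc minus iEF of at most -1.5 and WT-EF minus iEF between -0.25 and 0.25. The members made up 0.31% of the 15467 genes and 2.59% of the 1856 genes that met the iLuc cutoff. Of those 1856 genes, 1460 (78.7%) stood at least 2-fold lower in WT-EF than in iEF cells and are called rescued genes here.

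EWS/FLI is the fusion transcription factor of Ewing sarcoma, which joins the disordered EWS domain to the ETS DNA-binding domain of FLI. It activates some genes and represses others, and its DNA sites include ETS motifs and repeats of GGAA. Knockdown of the fusion lets repressed genes come up, and a KD/rescue experiment then asks which of them a cDNA can bring down again.

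All 15 libraries were made from A673, an established Ewing sarcoma line. iLuc cells carried an shRNA against luciferase and an empty vector, and so kept endo-EF. The other 12 libraries carried the iEF shRNA, which targets EWS/FLI, together with an empty vector (iEF) or a cDNA of WT-EF, of Δ22 (labelled del22), which lacks nearly all of the EWS domain, or of DAF, in which tyrosines of that domain are mutated to alanine, with 3 libraries per condition. Retrovirus brought in the shRNA on day 1 and the cDNA on day 5. Cells were selected in 2 µg/mL puromycin and 400 µg/mL hygromycin B until day 16. The results hold for a single cell line. The labels number the replicates, and the study draws its design for 1 replicate from transduction onwards and adjusted counts by replicate set. The labels do not name the cultures, and p-values measure the spread between these libraries, which may be in part technical.

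Total counts ran from 28659475 to 41859880 per library, with a median of 32943231, so that 3 counts were worth 0.0782 to 0.107 CPM. *FLI1*, whose reads come from both endo-EF and the cDNAs, was measured at 49.4 ± 2.62 CPM in iLuc, 14.6 ± 1.44 CPM in iEF, 17.6 ± 1.39 CPM in WT-EF, 31.2 ± 6.08 CPM in Δ22 and 24.3 ± 2.64 CPM in DAF cells (SD, n = 3 each). The paper gives the 3′UTR of EWS/FLI as the target of the iEF shRNA. Whether the cDNAs carry that stretch was not checked, so these values do not compare the amount of endo-EF with that of a cDNA. Of the Ewing sarcoma markers, *NKX2-2*, *NR0B1*, *STEAP1*, *CCND1*, *PRKCB*, *LIPI* and *GLI1* had counts in iLuc cells at mean levels from 5.23 to 1746 CPM. *CD99* was listed at 0 to 0.0782 CPM in all libraries. The reason for these near-zero counts was not tested, and they are not read as absence of *CD99* from the cells. Of the markers of other cell types, *PTPRC*, *EPCAM* and *GFAP* were at 1.18 CPM or less in all libraries and *MYOD1* was at most at 0.0879 CPM, while *PECAM1* was not analysed here. The WT-EF replicate 3 library stood apart over the members, as described below, and the values that the lists, the ranges and the rule give without it stand beside the results they touch. Over all genes compared, replicate 3 of Δ22 also stood apart, with a chi-square per gene of 83.2 and 71.8 against replicates 1 and 2. Between replicates 1 and 2 of Δ22 it was 42.3. Replicate 3 was likewise the most distant in WT-EF and DAF.

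Upstream windows of RefSeq (build GRCh38.p14, the 250 bases before a gene's start, on the gene's strand) were matched by symbol for 32 of the 48 members. GGAAGGAA, a tandem pair of the ETS core, was found on either strand in 2 of the 32 (6.25%) and in 2.99% of all 27305 windows. CCGGAAGT, a high-affinity ETS sequence, was found in 1 of 32 (3.12%) and in 3.64% of all windows. The shorter GGAA, which both of these contain, was found in 96.9% of members and in 92.8% of all windows, with a median of 3 matches in each. TATAAA was found in 7 of the 32 (21.9%) and in 11.1% of all windows, and the median GC content was 56.8% in members and 58.0% in all windows. The windows with the tandem pair are those of *PCSK1* and *DRAXIN*, and the window with the ETS sequence is that of *ZNF215*. They are shown with the windows of *NR3C2* and *GALNT14*, which differed between DAF and Δ22 below. Each is written 5′ to 3′ on the gene's strand with GGAA, or its complement TTCC, in capitals.
PCSK1 (chr5:96433249-96433498, minus strand): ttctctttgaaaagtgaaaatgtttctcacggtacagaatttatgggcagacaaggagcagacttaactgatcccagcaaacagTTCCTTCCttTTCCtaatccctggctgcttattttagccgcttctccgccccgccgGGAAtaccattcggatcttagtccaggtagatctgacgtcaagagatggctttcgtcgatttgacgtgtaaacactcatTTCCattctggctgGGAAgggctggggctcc
DRAXIN (chr1:11691460-11691709, plus strand): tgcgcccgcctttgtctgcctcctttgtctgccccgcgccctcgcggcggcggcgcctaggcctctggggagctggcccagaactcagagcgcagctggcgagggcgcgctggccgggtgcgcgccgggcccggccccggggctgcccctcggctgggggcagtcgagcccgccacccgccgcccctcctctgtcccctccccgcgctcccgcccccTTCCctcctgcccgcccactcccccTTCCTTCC
ZNF215 (chr11:6926176-6926425, plus strand): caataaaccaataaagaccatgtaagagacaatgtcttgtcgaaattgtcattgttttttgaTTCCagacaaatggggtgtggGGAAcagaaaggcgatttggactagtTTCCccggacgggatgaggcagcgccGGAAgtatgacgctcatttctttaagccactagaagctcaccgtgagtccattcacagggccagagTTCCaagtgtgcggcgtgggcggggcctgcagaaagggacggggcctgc
NR3C2 (chr4:148442415-148442664, minus strand): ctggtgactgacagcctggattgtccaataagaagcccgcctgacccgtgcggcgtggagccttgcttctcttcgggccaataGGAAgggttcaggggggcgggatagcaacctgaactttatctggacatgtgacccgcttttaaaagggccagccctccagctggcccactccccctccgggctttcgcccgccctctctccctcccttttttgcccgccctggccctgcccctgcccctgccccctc
GALNT14 (chr2:31138441-31138690, minus strand): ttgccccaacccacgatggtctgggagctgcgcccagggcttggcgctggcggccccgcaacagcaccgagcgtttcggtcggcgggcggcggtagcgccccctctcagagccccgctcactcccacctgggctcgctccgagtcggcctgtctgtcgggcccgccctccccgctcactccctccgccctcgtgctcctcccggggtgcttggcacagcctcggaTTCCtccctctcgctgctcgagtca
These matches describe the letters of the windows and say nothing of binding.

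Over the members, the median iLuc minus iEF was -1.97 and the median WT-EF minus iEF was -0.01 (differences of log2 CPM). Both differences chose the genes and are given without a test. Members were weakly expressed as a group, with a median of 4.08 CPM over all libraries (range 0.636 to 127 CPM), against 10.8 CPM for rescued genes and 18.1 CPM for all 15467 genes. They were also less even between replicates than genes in general. The median SD of log2 CPM over the 3 replicates was 0.38 in iLuc, 0.34 in iEF, 0.45 in WT-EF, 0.56 in Δ22 and 0.37 in DAF for members, and 0.14, 0.15, 0.21, 0.19 and 0.16 for all 15467 genes. For rescued genes these SDs were 0.33, 0.26, 0.53, 0.35 and 0.29. In bulk RNA, fewer cells that express a gene and less RNA per cell cannot be told apart. Of the 47 members with a position in the annotation, 42 were protein coding and 5 were long noncoding RNAs. They lay on 18 chromosomes, and no pair was closer than the 1809678 bases between *COL16A1* and *CSMD2*.

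**Figure D1:**
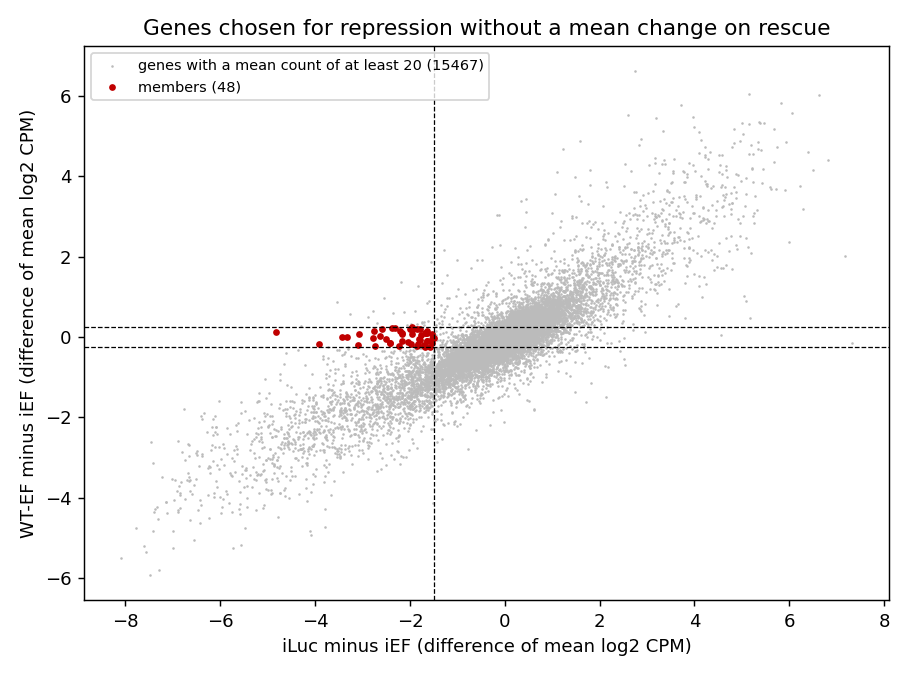
Difference of mean log2 CPM between WT-EF and iEF (y axis) against that between iLuc and iEF (x axis) for 15467 genes, with the 48 members in red and the limits of the rule as dashed lines. Members lie in the band between -0.25 and 0.25 to the left of -1.5, while most genes at the same x values lie below it.

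The limits cut through a continuous range of values. Just inside the limit on repression lay *NEFM*, at -1.50036, and just outside it *SLC37A1*, at -1.49891. For the WT-EF window the upper neighbours were *FRMD3* inside at 0.25 (0.246247) and *LINC01013* outside at 0.28, and the lower ones were *RGS5* at -0.24 and *LNCOG* at -0.25 (-0.252963). The member with the fewest counts was *ZNF215*, with a mean of 21.9, and *TNFSF8* missed the limit at 19.4. In 4 members, *ENSG00000130201*, *PDGFB*, *GPR158* and *ABCC9*, no iLuc library held more than 3 counts. Against a floor of 3 counts per iLuc library their iEF means were at least 3.27-fold, 6.15-fold, 5.85-fold and 5.39-fold higher, and with these bounds the median over members was again -1.97.

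Collagens and adhesion molecules included the members with the most reads. *COL3A1* (chromosome 2 from 189839099 to 189877472, GRCh37), which encodes the chain of fibrillar type III collagen, was measured at 29.99, 9.31 and 17.3 CPM in iLuc, 88.9, 228 and 148 CPM in iEF, 88.8, 131 and 166 CPM in WT-EF, 63.9, 140.2 and 261 CPM in Δ22 and 123, 173 and 239.7 CPM in DAF libraries 1, 2 and 3. All 12 libraries with the iEF shRNA lay above all iLuc libraries, and the conditions among them overlapped. *COL16A1*, a collagen that associates with fibrils, stood at 15.3, 9.34 and 14.7 CPM in iLuc, 32.9, 78.7 and 38.6 CPM in iEF and 58.5, 40.5 and 63.2 CPM in WT-EF libraries, so that WT-EF lay above iEF in numbers 1 and 3 and below it in number 2. *FAT3*, a very large atypical cadherin, read 39.0, 43.5 and 39.8 CPM in iLuc, 147, 109 and 145 CPM in iEF, 87.3, 129 and 130.3 CPM in WT-EF and 169.7, 155 and 149.6 CPM in DAF libraries, with DAF above iEF throughout. *LAYN*, a hyaluronan receptor, had WT-EF minus iEF of 0.88, 0.37 and -1.04 in the 3 numbers.

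Secreted ligands, a prohormone processing enzyme and cell surface receptors formed another part of the list, at widely different levels. *PCSK1*, the prohormone convertase of neuroendocrine cells, had the most negative iLuc minus iEF of the members, -4.82. It was measured at 2.63, 1.63 and 1.64 CPM in iLuc, 75.5, 51.3 and 45.0 CPM in iEF, 69.8, 78.1 and 40.8 CPM in WT-EF, 156, 180.2 and 69.4 CPM in Δ22 and 152, 117 and 52.5 CPM in DAF libraries. The replicate 3 libraries were the lowest of their condition in iEF, WT-EF, Δ22 and DAF. *TGFA*, a ligand of the EGF receptor, was at 0.275, 0.365 and 0.299 CPM in iLuc, 3.44, 1.52 and 2.82 CPM in iEF, 3.99, 4.39 and 1.17 CPM in WT-EF, 11.2, 12.5 and 11.01 CPM in Δ22 and 8.40, 7.78 and 13.3 CPM in DAF libraries. All Δ22 and DAF libraries of *TGFA* lay above all iEF and WT-EF libraries. *IL1RL1*, the receptor of interleukin 33, was at 0.183, 0.0842 and 0.0597 CPM in iLuc, 3.18, 1.18 and 3.43 CPM in iEF, 6.87, 3.86 and 0.293 CPM in WT-EF, 4.37, 19.5 and 6.65 CPM in Δ22 and 5.59, 17.1 and 6.00 CPM in DAF libraries. Its WT-EF replicate 3 library lay below the lowest iEF library while the other 2 lay above the highest. *PDGFB*, a ligand of the PDGF receptors, had the same arrangement, at 0.447, 0.371 and 0.814 CPM in iEF and 1.19, 0.925 and 0.107 CPM in WT-EF libraries. *DRAXIN*, an axon guidance protein that also binds Wnt coreceptors, was at 7.06, 11.6 and 10.5 CPM in iLuc, 57.7, 60.2 and 75.7 CPM in iEF, 52.6, 69.4 and 44.5 CPM in WT-EF and 52.9, 56.1 and 30.1 CPM in DAF libraries, with all DAF libraries below all iEF libraries. *WNT10A*, a Wnt ligand, varied most among the ligands, with WT-EF minus iEF of 2.23, -1.89 and 0.10.

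Signalling regulators showed both stable and variable values. *APOLD1*, an endothelial early-response gene, was at 13.8, 9.31 and 12.1 CPM in iLuc, 89.9, 95.1 and 113 CPM in iEF, 109.7, 97.5 and 106 CPM in WT-EF, 106, 74.2 and 110.5 CPM in Δ22 and 117, 89.0 and 114 CPM in DAF libraries. It was among the most even of the members, with all 12 depleted or rescued libraries between 74.2 and 117 CPM, although 25.6% of its exon length overlaps other genes. *HEY1*, a transcriptional repressor downstream of Notch, was at 1.07, 0.982 and 0.716 CPM in iLuc, 4.55, 4.96 and 5.38 CPM in iEF and 5.18, 6.29 and 6.04 CPM in WT-EF libraries. *RGS5*, a GTPase-activating protein for G protein subunits known from pericytes, was at 6.02, 16.5 and 20.2 CPM in iEF and 9.83, 38.2 and 3.22 CPM in WT-EF libraries, and so entered the list as a mean of values on both sides of 0. *CDC42EP4*, an effector of the GTPase CDC42, was at 57.4, 59.0 and 60.6 CPM in iEF, 70.7, 48.2 and 48.4 CPM in WT-EF, 67.1, 78.9 and 99.6 CPM in Δ22 and 94.3, 97.5 and 129 CPM in DAF libraries, with Δ22 and DAF above iEF throughout. *LATS2*, a kinase of the Hippo pathway, had iLuc minus iEF of -1.59, and its DAF and Δ22 libraries all lay above its WT-EF libraries. *DGKB*, a diacylglycerol kinase, was at 2.71, 3.07 and 3.20 CPM in iEF, 3.82, 2.77 and 2.53 CPM in WT-EF and 2.11, 2.00 and 2.25 CPM in DAF libraries, with DAF below both.

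Scaled for exon length, the members with the highest iEF level were *NEFM* at 23.8, *COL3A1* at 22.9, *LAYN* at 20.7 and *APOLD1* at 13.8 RPKM (reads scaled to exon length and library size), and the lowest was *ABCC9* at 0.0273. Among the long noncoding RNAs, *LINC02392* was at 0.214, 0.0842 and 0.209 CPM in iLuc, 1.79, 2.56 and 2.70 CPM in iEF, 5.29, 1.88 and 1.22 CPM in WT-EF and 6.26, 11.8 and 8.32 CPM in DAF libraries. *ENSG00000260604* was at 3.15, 2.36 and 3.26 CPM in iEF, 2.96, 3.30 and 2.18 CPM in WT-EF, 4.28, 7.87 and 3.75 CPM in Δ22 and 4.96, 6.67 and 3.82 CPM in DAF libraries, above iEF and WT-EF in all 6 libraries of the mutants. *SLC44A5*, a choline transporter-like gene, and *CSMD2*, a large transmembrane protein of neurons, had iLuc minus iEF of -2.42 and -2.23.

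Further members had iLuc minus iEF between -2.30 for *WAKMAR2* and -1.77 for *NAP1L3*, a range that also holds members named elsewhere. Beside these they were *OTOGL*, *ASPHD1*, *LNCTSI*, *GSDMC*, *HIC1*, *DDO*, *ABCB1* and *ENSG00000260306*, and all were tested between the mutants. *ABCB1*, the drug efflux pump P-glycoprotein, was at 0.0917, 0.0842 and 0.149 CPM in iLuc, 0.867, 0.169 and 0.843 CPM in iEF, 1.66, 0.661 and 0.0799 CPM in WT-EF, 0.264, 3.55 and 0.893 CPM in Δ22 and 0.633, 2.88 and 0.436 CPM in DAF libraries. Its conditions overlapped, and its WT-EF replicate 3 level was about that of 3 counts. *GSDMC*, a gasdermin, was at 0.998, 0.540 and 0.785 CPM in iEF, 0.942, 1.48 and 0.160 CPM in WT-EF, 2.08, 2.48 and 1.43 CPM in Δ22 and 2.39, 2.22 and 3.15 CPM in DAF libraries, with both mutants above iEF.

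**Figure D2:**
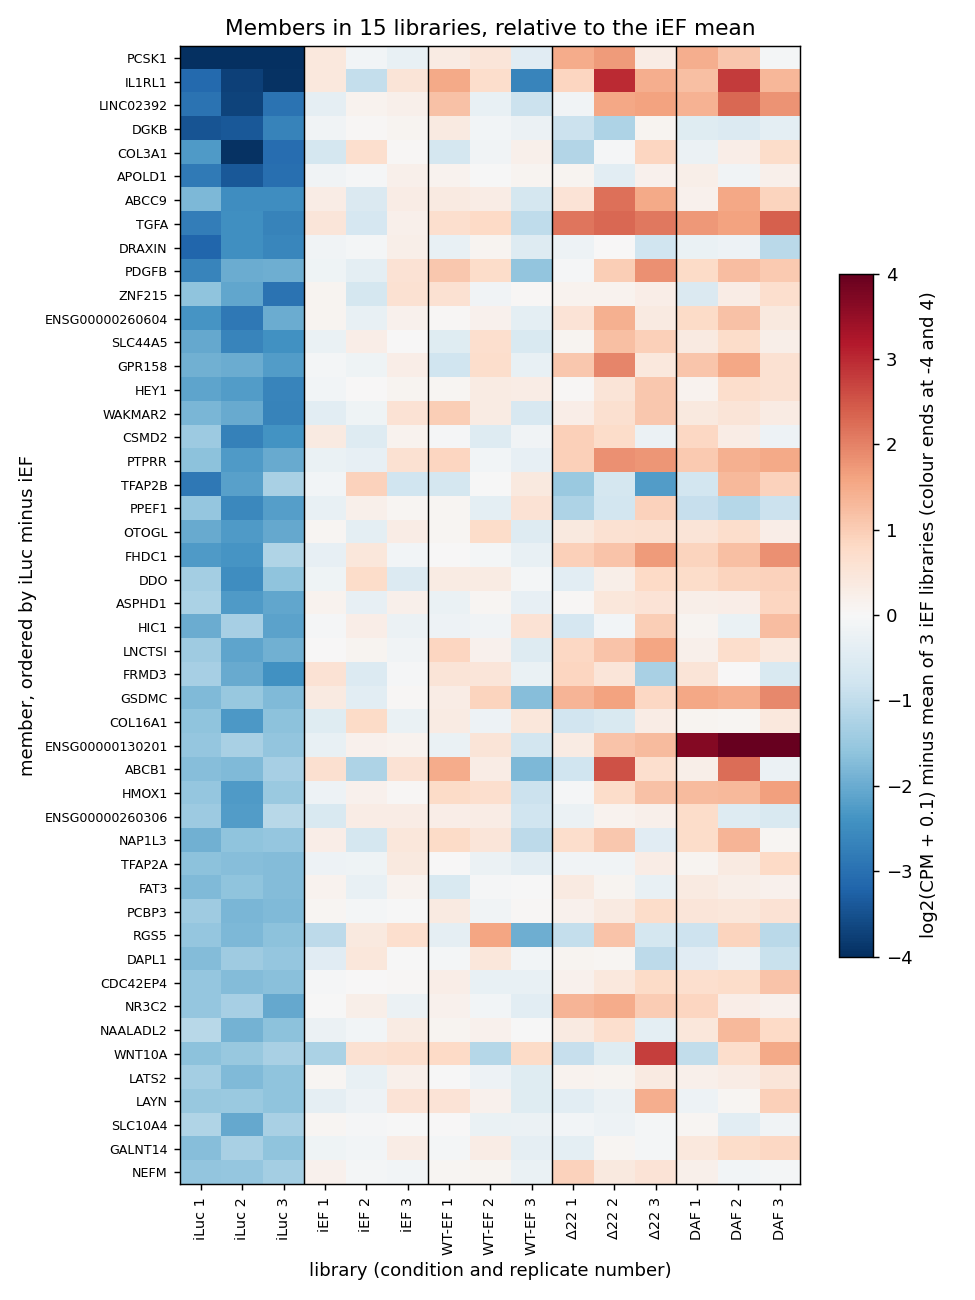
log2(CPM + 0.1) of the 48 members (rows, ordered by iLuc minus iEF) in 15 libraries (columns, by condition and replicate number), relative to the mean of the 3 iEF libraries, with colours ending at -4 and 4. The iLuc columns are blue for all members, and most rows are red in the Δ22 and DAF columns, where the median differences from iEF were 0.45 and 0.46, although rows such as *DGKB* and *PPEF1* are mostly blue there.

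The question of whether rescue misses these genes was then put to each replicate number. The mean that chose a member was near 0 by the rule, but its 3 values often were not. The median WT-EF minus iEF over members was 0.26 in number 1, 0.23 in number 2 and -0.56 in number 3. All 3 values lay within 0.25 of 0 in 2 members, *NEFM* and *SLC10A4*, and within 0.5 in 11 members. The other 9 of these were *APOLD1*, *CDC42EP4*, *NR3C2*, *PCBP3*, *HEY1*, *CSMD2*, *DGKB*, *NAALADL2* and *DAPL1*. *SLC10A4*, a vesicular protein of the bile acid transporter family, was at 4.16, 2.27 and 3.94 CPM in iLuc, 10.3, 9.48 and 9.63 CPM in iEF and 9.97, 8.11 and 8.28 CPM in WT-EF libraries. *PCBP3*, an RNA-binding protein, was at 3.30, 2.50 and 2.60 CPM in iLuc, 9.72, 8.67 and 8.96 CPM in iEF and 11.7, 8.32 and 9.43 CPM in WT-EF libraries. In contrast, 20 members had a value over 0.5 in 1 number and under -0.5 in another. The lowest of the 3 values came from number 3 in 34 of 48 members, and the WT-EF replicate 3 library lay below all iEF libraries in 29 members and above them all in 4. For replicate 1 these counts were 5 below and 16 above, and for replicate 2 they were 6 and 16. Over all 15467 genes, 44.2%, 41.9% and 44.2% lay below all iEF libraries in replicates 1, 2 and 3, and 31.4%, 37.8% and 37.7% lay above. In all 48 members the ranges of WT-EF and iEF overlapped. These are the values that the rule averaged, so they describe the members and test nothing.

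**Figure D3:**
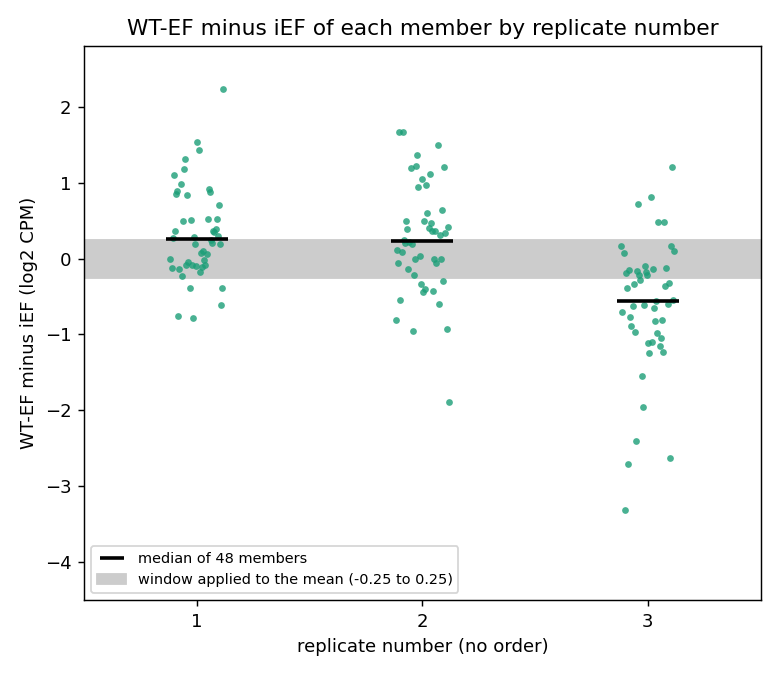
WT-EF minus iEF (log2 CPM, y axis) of each of the 48 members in replicate numbers 1, 2 and 3 (x axis, no order), with the median as a bar and the window of the rule in grey. Medians were 0.26 and 0.23 in numbers 1 and 2 and -0.56 in number 3, where 12 members lay at or below -1.

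The same library also stood lowest over rescued genes. Their median difference from the iEF mean was -1.46 in WT-EF replicate 1, -1.84 in replicate 2 and -2.27 in replicate 3, while *FLI1* was at 16.0, 18.0 and 18.7 CPM in these libraries. Its part in the members' values was not tested. Without WT-EF replicate 3 the rule found 90 genes, 25 of which were members, and 1309 of 1896 repressed genes (69.0%) were rescued.

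To see how the values held outside the libraries that chose them, the rule was applied to 2 replicate numbers and the genes were read in the number left out. Leaving out number 1 chose 44 genes, which included 26 of the 48 members (54.2% of members, 59.1% of those chosen). In number 1 their median iLuc minus iEF was -1.53 and their median WT-EF minus iEF was 0.36, with 22.7% of genes within 0.25 of 0 and 2.27% at or below -1, against 9.86% of all 15467 genes. Leaving out number 2 chose 39 genes, of which 18 were members, with medians of -2.40 and -0.14 in number 2, where 17.9% lay within 0.25 and 20.5% at or below -1, against 12.9% of all genes. Leaving out number 3 chose 100 genes, of which 21 were members, and there the median iLuc minus iEF was -2.16 and the median WT-EF minus iEF was -1.20. Of these 100 genes, 54.0% lay at or below -1 in number 3, against 15.6% of all 15467 genes, and 8 lay within 0.25. Lower expression in iLuc than in iEF cells was therefore present in each number left out, while the median WT-EF level was well below that of iEF in number 3. *DGKB*, *DAPL1*, *APOLD1* and *PCBP3* were chosen whichever number was left out.

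**Figure D4:**
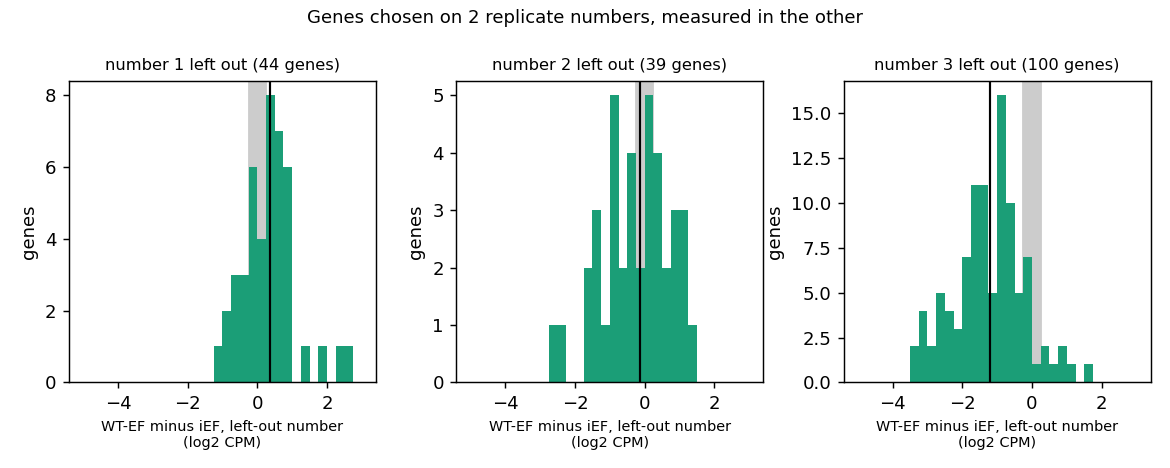
Number of genes (y axis) by WT-EF minus iEF in the left-out replicate number (log2 CPM, x axis), for genes chosen on the other 2 numbers, with the median as a black line and the window of the rule in grey. Medians are 0.36 for 44 genes, -0.14 for 39 genes and -1.20 for 100 genes.

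Both mutants stood above iEF at most members. The median Δ22 minus iEF was 0.45 and the median DAF minus iEF was 0.46, compared with -0.06 and -0.31 over rescued genes and -0.01 and -0.03 over all 15467 genes. The Δ22 mean was above the iEF mean in 37 members (77.1%), compared with 47.5% of all 15467 genes and 44.1% of rescued genes. The DAF mean was above it in 40 members (83.3%), compared with 46.5% of all genes and 26.4% of rescued genes. Both means were above it in 35 members and in 5753 of the 15467 genes. These differences share the iEF libraries with the rule, as they do with each other, and carry no test. The minimum count of the rule also took in the mutant libraries. Of the 48 members, 41 reached it in the mean of the 9 iLuc, iEF and WT-EF libraries. The others passed only with the counts of the mutants, and in all of them both mutant means were above iEF. In the left-out numbers the medians were 0.28, 0.45 and 0.22 for Δ22 and 0.46, 0.53 and 0.23 for DAF. By library, the median of the members relative to the iEF mean was 0.12, 0.51 and 0.69 in Δ22, 0.38, 0.72 and 0.60 in DAF, and 0.17, 0.18 and -0.35 in WT-EF. The median was above 0 in all 6 libraries of the mutants and below 0 in WT-EF replicate 3.

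Counted by ranges, all 3 Δ22 libraries lay above all 3 iEF libraries in 15 members (31.2%), compared with 8.81% of all 15467 genes and 8.01% of rescued genes. They lay below in 1 member, *SLC10A4* (2.08%), compared with 12.6% of all genes and 14.8% of rescued genes. For DAF, 19 members lay above iEF (39.6%), compared with 16.7% of all genes and 6.44% of rescued genes. Below iEF lay 3 members, *DRAXIN*, *PPEF1* and *DGKB* (6.25%), compared with 21.7% of all genes and 34.7% of rescued genes. The iEF libraries also chose the members, and some members met the minimum count only through the mutants, so nothing is read from these counts. Against WT-EF, Δ22 lay above in 8 members (16.7%, background 28.8%) and below in none (background 22.4%). DAF lay above WT-EF in 17 members (35.4%, background 29.7%) and below in 3, *PPEF1*, *DGKB* and *DAPL1* (6.25%, background 23.9%). Against only WT-EF replicates 1 and 2, Δ22 lay above in 8 members and below in 2 (4.17%, with 30.7% and 27.5% of all genes), and DAF lay above in 17 and below in 3 (33.2% and 27.4% of all genes). Among rescued genes, 93.2% lay above WT-EF in Δ22 and 87.3% in DAF, which the choice of those genes fixes in large part. In 4 members, *TGFA*, *ENSG00000260604*, *FHDC1* and *PTPRR*, all 6 libraries of the mutants lay above all iEF and WT-EF libraries (8.33% of members, background 2.77%). The iEF and WT-EF libraries chose the members, and nothing is read from this count either. *FHDC1*, a formin-related protein, was at 1.45, 2.56 and 1.72 CPM in iEF, 1.88, 1.74 and 1.49 CPM in WT-EF, 3.66, 4.25 and 6.29 CPM in Δ22 and 3.55, 4.38 and 6.81 CPM in DAF libraries. *PTPRR*, a phosphatase of MAP kinases, was at 0.631, 0.607 and 1.25 CPM in iEF, 1.5, 0.713 and 0.612 CPM in WT-EF, 1.61, 3.02 and 2.93 CPM in Δ22 and 1.72, 2.27 and 2.41 CPM in DAF libraries.

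The comparison of DAF with Δ22 was tested, since both differences of the rule were taken without these libraries. Its minimum of 20 counts was a mean over all 15 libraries, however, and 7 members had fewer in the mean of the 9 iLuc, iEF and WT-EF libraries. With the minimum set on those 9 libraries, 41 members were left, of which 1 was higher in DAF (2.44%) and 2 were lower (4.88%) at an adjusted p under 0.05. The background was 0.948% higher and 0.379% lower over the 28793 genes tested, and 1.62% and 0.692% over the 15467 genes with enough counts. Counts of 1 and 2 genes are too few to set against these shares. Over the 48 members, 2 were higher and 2 were lower (4.17% each), with a median difference of 0.002 over members and -0.016 over all 15467 genes. Of the 2 higher, 1 was *ENSG00000130201*, which met the minimum count only through DAF and is not read as a test result. Among rescued genes 0.411% were higher and 3.70% were lower. *ENSG00000130201*, which has no symbol in the annotation used here, was at 0.0306, 0.0561 and 0.0299 CPM in iLuc, 0.210, 0.337 and 0.320 CPM in iEF, 0.222, 0.449 and 0.133 CPM in WT-EF, 0.381, 0.756 and 0.822 CPM in Δ22 and 4.85, 7.12 and 8.22 CPM in DAF libraries. The DAF libraries lay far above the other 12. Its mean was 52.1 counts over 15 libraries and 10.7 over the 12 without DAF, so it became a member only through DAF, and its difference is given as a description without a test. *GALNT14*, an enzyme that starts O-linked glycosylation, was at 15.7, 16.3 and 21.6 CPM in iEF, 16.7, 21.6 and 13.8 CPM in WT-EF, 13.5, 18.6 and 16.6 CPM in Δ22 and 23.8, 29.4 and 31.3 CPM in DAF libraries, with DAF above the other conditions. It rose by 0.80 on the log2 scale from Δ22 to DAF (SE 0.16, adjusted p = 0.0189, quasi-likelihood test of edgeR).

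Lower in DAF than in Δ22 were *NR3C2* and *NEFM*. *NR3C2*, the mineralocorticoid receptor (chromosome 4 from 148999913 to 149365850, GRCh37), was at 7.21, 8.42 and 5.01 CPM in iLuc, 21.0, 24.96 and 18.1 CPM in iEF, 24.04, 19.8 and 15.9 CPM in WT-EF, 54.1, 59.9 and 42.6 CPM in Δ22 and 38.9, 25.5 and 23.98 CPM in DAF libraries. Its Δ22 libraries were the highest, and DAF overlapped iEF. It fell by 0.83 on the log2 scale from Δ22 to DAF (SE 0.14, adjusted p = 0.00876, edgeR's quasi-likelihood test). *NEFM*, the medium subunit of neurofilaments, was at 28.6, 29.1 and 33.7 CPM in iLuc, 97.0, 81.9 and 80.3 CPM in iEF, 91.3, 93.6 and 71.6 CPM in WT-EF, 164, 112 and 127 CPM in Δ22 and 99.8, 79.8 and 81.2 CPM in DAF libraries, again with Δ22 alone above iEF. It fell by 0.62 (SE 0.13, adjusted p = 0.0222, same edgeR test), and 26.4% of its exon length overlaps other genes. *GALNT14*, *NR3C2* and *NEFM* had the same direction in 3 of 3 replicate numbers. Without the replicate block none of them passed, and *GALNT14*, *NEFM* and *NR3C2* had adjusted p = 0.0745, 0.0722 and 0.132 (edgeR). Dropping 1 library also ended calls. *NEFM* lost its call without Δ22 replicate 1 or 3 or any DAF replicate, *GALNT14* without Δ22 replicate 1 or 3 or DAF replicate 2 or 3, and *NR3C2* without Δ22 replicate 2 or DAF replicate 2 or 3, with adjusted p of at most 0.196, 0.147 and 0.0786 (edgeR).

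**Figure D5:**
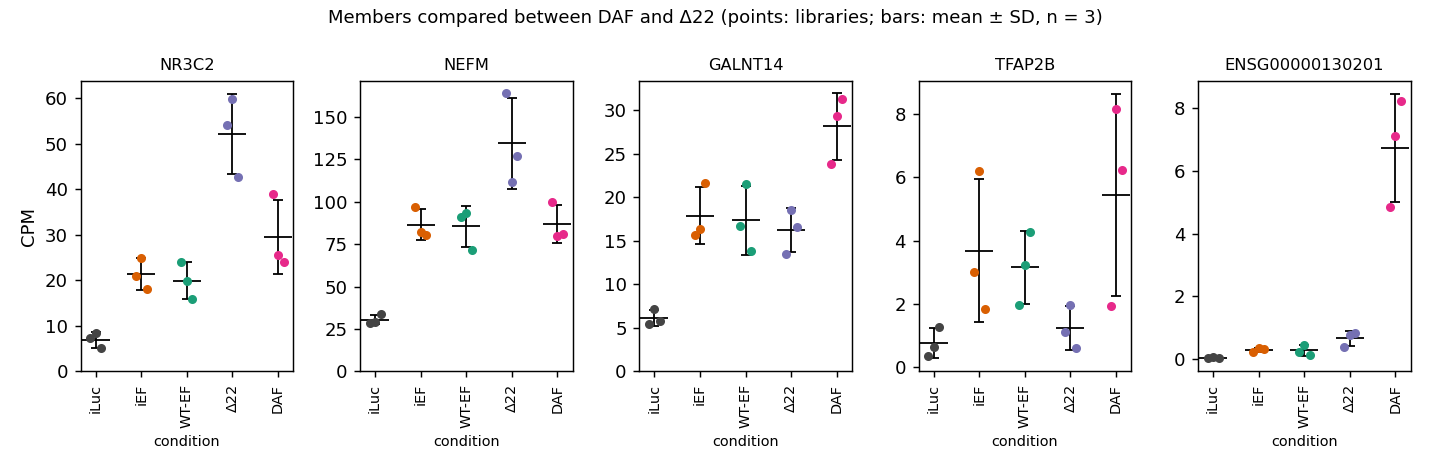
CPM (y axis, linear, a scale per gene) of 5 members in 5 conditions (x axis), with libraries as points and the mean ± SD (n = 3) as bars. *NR3C2* and *NEFM* are highest in Δ22, *GALNT14* and *ENSG00000130201* are highest in DAF, and *TFAP2B*, at 1.93, 8.15 and 6.24 CPM in DAF and 1.11, 1.98 and 0.607 CPM in Δ22, missed the cutoff.

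*TFAP2A* and *TFAP2B*, transcription factors of the AP-2 family, were both members. *TFAP2B* had a log2 fold change of 2.01 between DAF and Δ22 (SE 0.47, adjusted p = 0.0547, edgeR), with values of 0.77, 2.01 and 3.24 in the 3 numbers, and ranges that overlapped slightly, since DAF replicate 1 was at 1.93 and Δ22 replicate 2 at 1.98 CPM. *TFAP2A* was at 12.3, 12.3 and 16.6 CPM in Δ22 and 14.5, 17.3 and 23.7 CPM in DAF libraries, a log2 fold change of 0.43 (SE 0.18, adjusted p = 0.408, edgeR). *HMOX1*, heme oxygenase 1, was at 5.23, 6.91 and 6.22 CPM in iEF, 10.4, 9.72 and 3.33 CPM in WT-EF, 5.83, 10.1 and 13.7 CPM in Δ22 and 14.7, 15.1 and 19.3 CPM in DAF libraries, with DAF highest and an adjusted p of 0.519 against Δ22 in the edgeR test. The 44 members that did not pass had SEs from 0.11 to 0.82 and a median SE of 0.33. A 2-fold difference would not have passed the cutoff at that median SE or above it. A missing call is therefore not read as equal levels. An unadjusted p under 0.05 was reached by 8 members, the 4 that passed among them. The share over all genes at that unadjusted cutoff was not computed, so nothing is read from this count.

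Of 21 gene lists for pathways and families, 7 held a member, and 9 members were on a list. Among 30 collagens with enough counts, 21 met the iLuc cutoff, 17 were rescued and 2, *COL3A1* and *COL16A1*, were members. Of 65 growth factors and receptor tyrosine kinases, 31 met it, 26 were rescued and 2, *TGFA* and *PDGFB*, were members. *WNT10A* was a member among 11 repressed Wnt genes of which 10 were rescued, and *DRAXIN* was one among 15 repressed axon guidance genes of which 12 were rescued. *FAT3* stood among 14 repressed cadherins and adhesion molecules (13 rescued), *HEY1* among 4 repressed Notch genes (3 rescued) and *RGS5* among 29 repressed G protein-coupled receptors and regulators (24 rescued). The 38 repressed interferon-stimulated genes (32 rescued) and the 14 repressed genes of antigen presentation (14 rescued) held no member. Nor did the lists of chemokines, cytokines and their receptors, of complement, of matrix glycoproteins, of matrix proteases or of integrins and laminins. Members were 2.59% of all repressed genes, so lists of such sizes can easily hold none, and nothing is read from their absence. The lists do not hold every gene of a family, and the members *IL1RL1* and *GPR158* are on none of them. Without WT-EF replicate 3, 34 of 38 repressed interferon-stimulated genes and 14 of 15 of antigen presentation were rescued. The rule then found *IFIT2* on the first list, *COL16A1* and *COL24A1* among collagens, and *ANGPT2* and *KDR* among growth factors and receptors. It also found *MMP3* and *MMP15* among proteases, *TNFRSF11B* among chemokines, cytokines and their receptors, *LAMA1* among integrins and laminins, and *BMP2* among TGF-beta genes. *WNT10A*, *DRAXIN* and *HEY1* were found again on their lists. Nothing was found on the lists of complement, matrix glycoproteins, cadherins or G protein-coupled receptors. None of the 9 listed members passed the test of DAF against Δ22.

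In the other direction, 29 genes met the mirror-image rule, standing at least 1.5 higher in iLuc than in iEF with WT-EF within 0.25 of iEF. Their medians were -0.02 for Δ22 minus iEF and -0.05 for DAF minus iEF, against 0.45 and 0.46 for the 48 members. Without WT-EF replicate 3 it found 41 genes, with medians of -0.01 and -0.07.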

How the data were processed

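RNA-seq of A673 cells was analysed in 15 libraries, with 5 conditions in 3 replicates and groups and replicate numbers taken from the sample labels. The authors used STAR (2.5.1b in the submitters' processing notes) to align paired-end reads to hg19 and counted them per gene with htseq-count in intersection-strict mode, and the deposited counts are whole numbers without normalization. Whether counting used strand is not given in the sources used here. A second table holds counts after the authors adjusted them with ComBat, a deposited signal in decimals for 27002 genes, used as an alternative. The last table holds the authors' own comparisons with iEF (fold changes, standard errors and adjusted p-values) and was not used. Another 3 columns of the count table belong to no sample here and were not used.

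The 28793 genes with a mean of 1 or more counts were tested. TMM factors were computed in edgeR 4.0.16 (R 4.3.3), and log2 CPM used a prior count of 2. DAF was compared with Δ22 by edgeR's quasi-likelihood test in a model of all 15 libraries with condition and replicate number as a block, as the study adjusted by replicate set. P-values were adjusted over all genes by the Benjamini-Hochberg method with a cutoff of 0.05. The code of the test was checked on simulated counts with the same dispersion for every gene and no replicate effect. That check does not cover genes as uneven between replicates as the members. Deviations from condition means correlated with a median r of 0.18 over 30 pairs of libraries with the same number (21 over 0.1) and -0.08 over 60 pairs with different numbers.

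The members, gene lists and tests were chosen with earlier results of these data known. Genes are named if they are *FLI1*, on a gene list, among the 10 members with the highest mean CPM, among the 10 most repressed with a mean count of at least 100, among the 10 most repressed with all 3 WT-EF minus iEF values within 0.5, among the largest called differences between DAF and Δ22, or next to a limit of the rule. Others were named after their values were seen. Symbols were matched for 45 of 48 members and gene positions (GRCh37) for 47. Intervals and floors of 3 counts cover counting error only. Alternatives covered prior counts, cutoffs, DESeq2 1.42.0 size factors and Wald test, ComBat-adjusted counts, filters, the block, the libraries fitted and each library left out.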

Additional observations from a re-analysis of the deposited data

How the results depend on the processing

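The list depends on its cutoffs. The rule found 99 genes with iLuc minus iEF at most -1, 22 with at most -2, 25 with WT-EF within 0.15 of iEF and 113 within 0.5. With a replicate number or a library left out it found 39 to 100 genes, 90 of them without WT-EF replicate 3, of which 25 were members. With the ComBat-adjusted counts it found 35 genes, 20 of them among the 48 members, 46 of which are in that table. The cause was not tested. Members called higher in DAF than Δ22 numbered 5 with no filter on low counts and 11 in the fit of only the 6 DAF and Δ22 libraries, and those called lower numbered 4 in that fit. The shares called over all genes in the alternative fits were not computed, so these counts are not read as a result about the members. With the minimum count set on the 9 iLuc, iEF and WT-EF libraries, 1 was called higher. With no replicate block, 1 was called higher and 0 lower, where the gene called was *ENSG00000130201*, a member only through its DAF counts, and the other 3 had adjusted p of 0.0722 to 0.132. With a replicate number or a library left out, 1 to 4 were called higher and 0 to 2 lower. Over 24 alternative fits, *NR3C2* was called in 19, *GALNT14* in 17, *NEFM* in 16 and *TFAP2B* in 9, all with the direction of the analysis above. Many of these fits left out only an iLuc, iEF or WT-EF library, which is not compared, and all of those called *NR3C2*, *GALNT14* and *NEFM*. Fits without a DAF or Δ22 library often lost these calls, as given above, so the tallies do not measure how firm the calls were. *ENSG00000130201* was called higher in all 24. The DESeq2 Wald test called *GALNT14*, *NR3C2*, *NEFM* and *TFAP2B*, and also *ENSG00000130201*, whose membership came from its DAF counts. The median DAF minus Δ22 ranged from -0.074 to 0.178 with libraries left out, the latter without DAF replicate 1, and the median DAF minus iEF from 0.41 to 0.59. The Δ22 minus iEF median ranged from 0.29 to 0.55. These last alternatives on differences from iEF, and the minimum on 9 libraries, were chosen after seeing the data. Low counts limit members such as *ZNF215*, where 3 counts are close to the iLuc level.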
